A study of Mus musculus with 32 samples.

Results

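Interferon beta (Ifnb1) and the subunits of the receptors through which interferons act were followed in mouse macrophages, with the kinases bound to those receptors. The members are the genes Ifnb1, Ifnar1, Ifnar2, Ifngr1, Ifngr2, Tyk2, Jak1 and Jak2, and they were taken as every array probe that the scanner software names for 1 of these 8 genes. This gave 10 probes, 3 of them for Ifnar1, out of 21459 probes of 16034 genes that were tested. All 10 were tested. The cells were bone marrow-derived macrophages (BMDMs), which are marrow cells grown into macrophages in culture with M-CSF. They came from WT C57BL/6 mice (C57BL6/J in the study's methods) and from Ifnar1-/- mice, in which the Ifnar1 gene is disrupted. Both genotypes had untreated cells and cells given an agent for 6 h, which was zVAD, IFNβ alone or as IFNβ+zVAD and IFNβ+zVAD+Nec-1, or LPS alone or as LPS+zVAD and LPS+zVAD+Nec-1. This makes 16 groups of 2 arrays. By the labels, LPS was used at 100 ng/mL. The IFNβ dose there is 1000 U/mL, while the study's methods name other doses for both. LPS is a bacterial lipid that TLR4 detects, zVAD (zVAD-fmk) is an inhibitor of caspases and Nec-1 (necrostatin-1) an inhibitor of the kinase RipK1. The labels do not say that the arrays of a group came from separate mice or cultures, so a p-value measures only the spread between these arrays. In such bulk RNA, fewer cells of a type and less RNA per cell cannot be told apart.

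IFNβ is a secreted protein that macrophages make when receptors such as TLR4 detect a microbe. It binds a receptor made of the chains IFNAR1 and IFNAR2. The kinase TYK2 is bound to IFNAR1 and JAK1 to IFNAR2, and both take part in the phosphorylation of STAT2, which with IRF9 switches on interferon-stimulated genes. Interferon gamma uses a separate receptor of the chains IFNGR1 and IFNGR2, bound by JAK1 and JAK2. In macrophages that respond to LPS, IFNβ acts back on the cells that secrete it.

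The sequence ahead of the Ifnb1 gene is shown because this gene had the widest range of all members. The Ifnar1 probe shown is the one that starts earliest in the transcript. It separated the genotypes on every array, as did the probe at base 2880. The promoter stretch lies at chr4:88522889-88522965 of the minus strand of GRCm38.p6 (RefSeq) and covers bases 171 to 95 before the annotated start. Capitals mark 3 matches to AANNGAAA, the core of elements bound by interferon regulatory factors (IRFs), and after them 1 match to the NF-kB motif. The Ifnar1 probe lies on the plus strand at chr16:91503764-91505350 of mm9 and has 60 bases, so it crosses an intron.
Ifnb1 promoter: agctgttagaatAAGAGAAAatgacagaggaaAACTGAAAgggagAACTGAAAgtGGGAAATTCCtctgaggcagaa
Ifnar1 probe at base 1536: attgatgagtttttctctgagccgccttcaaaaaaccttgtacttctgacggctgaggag

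The AANNGAAA matches start 159, 139 and 126 bases before the Ifnb1 start, and the NF-kB match starts at 116. Over 32851 mouse promoters of 300 bases, read on both strands, 23.9% hold AANNGAAA and 4.01% hold the NF-kB motif. All 8 members had 1 promoter in the table. None of the other 7 held AANNGAAA, and none of the 8 held the interferon-stimulated response element, in which AANNGAAA is contained (3.44% of promoters), or the AP-1 motif TGANTCA (7.81%). The STAT motif TTCNNNGAA (8.30%) occurred in Ifnar2, at 214, and in Ifnar1, at 5. Ifngr2 held the NF-kB motif at 75, Jak1 held the CREB motif TGACGTCA at 101 (1.79% of promoters), and Ifngr1, Tyk2 and Jak2 held none of the motifs searched. A match is a description of the letters in this window, and binding was not measured.

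Values are log2 intensities after quantile normalization, each a level of 1 probe that is compared only with the same probe on other arrays. The 32 arrays lay on 4 slides, and each slide held the 8 treatments of 1 genotype with 1 replicate number. Genotype and slide therefore cannot be told apart when Ifnar1-/- and WT cells of a treatment are compared. Treatment effects in a genotype compare arrays of the same slides. In the difference of these effects between genotypes a constant log2 offset of a slide cancels. A slide effect that changes with signal level would not cancel, and this was not tested. On the WT arrays 54.8% to 77.7% of the probes were well above background, and on the Ifnar1-/- arrays 44.5% to 61.6%. The Ifnar1-/- LPS+zVAD+Nec-1 arrays stood apart from each other, with 6.00% of probes over 2 log2 apart (r = 0.947), where the other groups had 0.280% to 2.40% (r = 0.973 to 0.991). All 8 macrophage markers were well above background on all 32 arrays, as were 7 of 8 neutrophil, 4 of 8 T and B cell, 3 of 5 dendritic cell, 4 of 5 fibroblast and 0 of 4 erythroid markers. Pdgfra was at background on every array. Between the WT and the Ifnar1-/- groups, the mean log2 level of the neutrophil markers was 9.92 to 10.39 against 10.63 to 11.23, and that of the fibroblast markers 6.51 to 7.32 against 8.24 to 8.83. Their part in the results was not tested.

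Ifnar1 was lower in the knockout cells on all of its probes in untreated cells, and 2 of the probes were lower in all 8 treatments, yet the knockout signal stayed well above background on all 3 with the exception of 1 array of the probe at 1536. Ifnar1 is on chromosome 16, and its probes start at bases 1536, 2880 and 6918 of the transcript. Which exons are deleted in these mice is not given in the sources used here, and a probe outside the deleted part checks nothing. In WT cells the probe at 1536 gave 8.53 and 8.31 untreated (replicates 1 and 2), 10.23 and 10.04 with LPS, 7.88 and 8.45 with IFNβ, 8.95 and 9.03 with zVAD, 8.40 and 7.98 with LPS+zVAD, 8.50 and 8.54 with IFNβ+zVAD, 9.24 and 9.08 with LPS+zVAD+Nec-1 and 7.94 and 8.31 with IFNβ+zVAD+Nec-1. Ifnar1-/- cells gave, in the same order, 6.48 and 7.06, 6.97 and 7.35, 6.79 and 6.86, 6.83 and 6.62, 6.66 and 7.12, 6.998 and 6.89, 6.06 and 6.32, and 5.82 and 6.10. Every knockout array was below every WT array on this probe, and the knockout signal was still well above background on 15 of 16 arrays, the exception being IFNβ+zVAD+Nec-1 replicate 1. The probe at 2880 gave 9.98 and 9.94 in untreated WT cells, 11.88 and 11.83 with LPS, 10.26 and 10.66 with IFNβ, 10.58 and 10.73 with zVAD, 10.53 and 10.22 with LPS+zVAD, 10.72 and 10.83 with IFNβ+zVAD, 11.38 and 11.17 with LPS+zVAD+Nec-1 and 10.19 and 10.27 with IFNβ+zVAD+Nec-1. The knockout values in that order were 7.93 and 8.02, 8.46 and 8.65, 7.97 and 8.16, 8.15 and 8.14, 8.36 and 8.53, 8.73 and 8.39, 7.41 and 7.39, and 7.29 and 7.61. Here too the genotypes did not overlap, and all 32 arrays were well above background.

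The probe at 6918 behaved differently. In WT cells it gave 14.22 and 14.19 untreated, 14.36 and 14.59 with LPS, 12.53 and 12.92 with IFNβ, 14.76 and 14.51 with zVAD, 12.38 and 11.18 with LPS+zVAD, 12.81 and 12.87 with IFNβ+zVAD, 13.50 and 13.62 with LPS+zVAD+Nec-1 and 9.02 and 12.73 with IFNβ+zVAD+Nec-1. The knockout values in that order were 11.89 and 11.87, 12.41 and 12.44, 11.69 and 11.82, 12.11 and 11.76, 11.60 and 11.72, 12.22 and 12.05, 11.45 and 11.32, and 11.39 and 11.16. The genotypes were apart in 6 of 8 treatments, while with LPS+zVAD and with IFNβ+zVAD+Nec-1 1 WT array was below the knockout arrays.

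**Figure D1:**
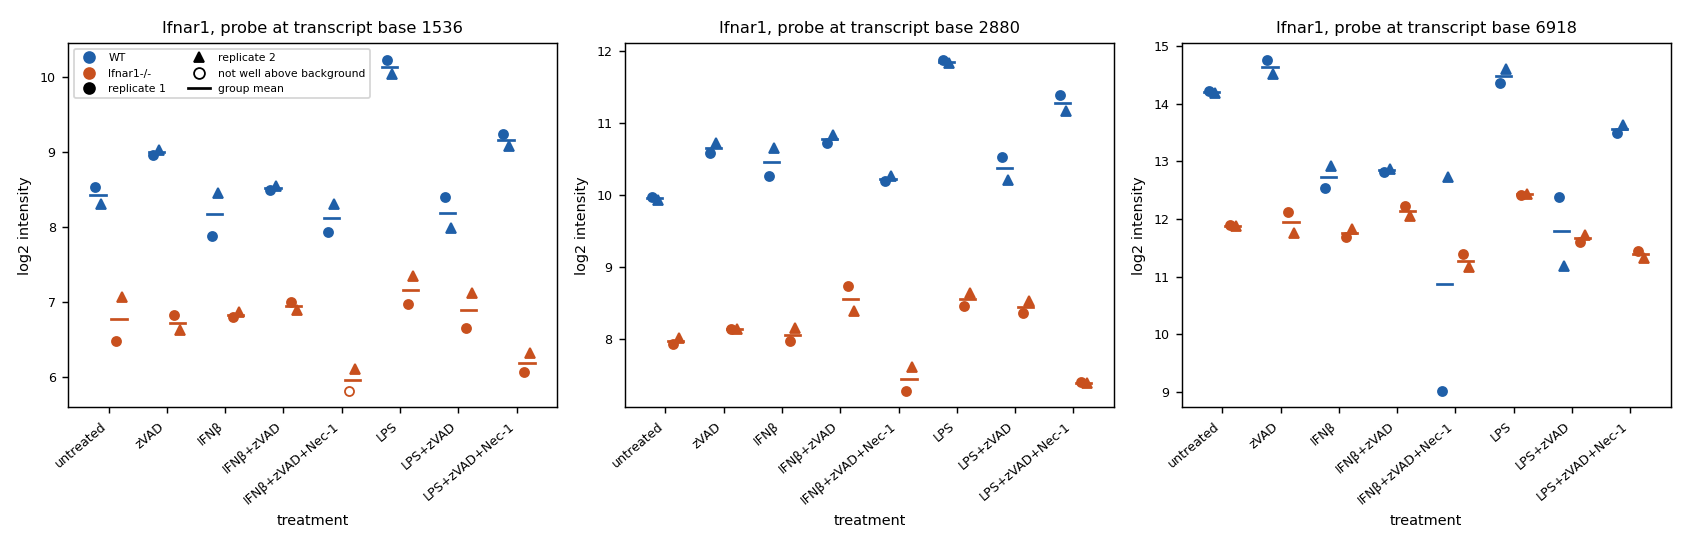
Log2 intensity of the 3 Ifnar1 probes, which start at bases 1536, 2880 and 6918 of the transcript, on each of the 32 arrays by treatment. Circles are replicate 1 and triangles replicate 2, with WT and Ifnar1-/- in separate colours and a bar at each group mean. The knockout arrays stay below the WT arrays on the first and second probe in every treatment and overlap them on the third in some.

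Against WT, the knockout log2 differences at 1536 were -1.65 ± 0.24 (SE, adjusted p = 0.00015) in untreated cells and from -2.97 to -1.30 over the 8 treatments, all called (adjusted p under 0.05, limma). At 2880 the difference was -1.98 ± 0.17 (SE, adjusted p = 3.95e-07) untreated and ran from -3.88 with LPS+zVAD+Nec-1 to -1.93 with LPS+zVAD, again all called. At 6918 it was called in 4 treatments, at -2.33 (adjusted p = 0.0326) untreated, -2.05 (adjusted p = 0.025) with LPS, -2.70 (adjusted p = 0.0139) with zVAD and -2.17 (adjusted p = 0.0128) with LPS+zVAD+Nec-1. These 4 calls at 6918 were not stable. The untreated difference had an adjusted p of 0.137 to 0.156 without any 1 of its 4 arrays, and the zVAD difference one of 0.0558 to 0.125. Without 1 array, the LPS difference had an adjusted p of 0.0883 to 0.102, and the LPS+zVAD+Nec-1 difference was lost without Ifnar1-/- LPS+zVAD+Nec-1 replicate 2 (-2.11, adjusted p = 0.0647), WT LPS+zVAD+Nec-1 replicate 1 (-2.24, adjusted p = 0.0512) or WT LPS+zVAD+Nec-1 replicate 2 (-2.11, adjusted p = 0.0582). With the slide as a random block the untreated adjusted p at 6918 was 0.0875 and that with LPS 0.0659. With IFNβ+zVAD+Nec-1 the difference at 6918 was 0.40 (adjusted p = 0.666), and it was -1.46 (adjusted p = 0.00223) without WT replicate 1 and 2.25 (adjusted p = 3.45e-05) without WT replicate 2.

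The probes also moved with treatment. In WT cells LPS raised Ifnar1 by 1.71 ± 0.24 (SE, adjusted p = 1.60e-05) at 1536 and by 1.89 ± 0.17 (SE, adjusted p = 2.25e-07) at 2880, and LPS+zVAD+Nec-1 raised it by 0.74 (adjusted p = 0.0169) and 1.32 (adjusted p = 8.83e-06). IFNβ raised the probe at 2880 by 0.50 (adjusted p = 0.0291) and IFNβ+zVAD by 0.82 (adjusted p = 0.000993). At 6918, by contrast, the signal with LPS was 0.27 (adjusted p = 0.788) from untreated, a fall was called with LPS+zVAD, -2.42 (adjusted p = 0.00455), and another with IFNβ+zVAD+Nec-1, -3.33 (adjusted p = 0.000773). The LPS+zVAD fall was lost without WT LPS+zVAD replicate 2 (-1.82, adjusted p = 0.0736), and the IFNβ+zVAD+Nec-1 fall was -1.47 without replicate 1 and -5.18 without replicate 2. The rise at 1536 with LPS+zVAD+Nec-1 was lost without WT LPS+zVAD+Nec-1 replicate 1 (0.66, adjusted p = 0.105) or WT untreated replicate 2 (0.63, adjusted p = 0.12). The rise at 2880 with IFNβ was lost without WT IFNβ replicate 2 (0.30, adjusted p = 0.293), WT untreated replicate 1 (0.52, adjusted p = 0.0866) or WT untreated replicate 2 (0.48, adjusted p = 0.123). A single change from untreated was called on these probes in Ifnar1-/- cells, a rise at 2880 with LPS of 0.58 (adjusted p = 0.0192), which was lost without Ifnar1-/- LPS replicate 2 (0.48, adjusted p = 0.147), Ifnar1-/- untreated replicate 1 (0.53, adjusted p = 0.114) or Ifnar1-/- untreated replicate 2 (0.62, adjusted p = 0.0641). Fitting the slide as a block let 3 more pass the test there, a rise at 2880 with LPS+zVAD, 0.47 (blocked adjusted p = 0.0269), a fall at 2880 with LPS+zVAD+Nec-1, -0.58 (blocked adjusted p = 0.045), and a fall at 1536 with IFNβ+zVAD+Nec-1, -0.81 (blocked adjusted p = 0.0373). The blocked fit also called the WT rise at 2880 with LPS+zVAD, 0.41 (blocked adjusted p = 0.0326).

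The rise of Ifnar1 with LPS was smaller in the knockout cells at 1536 and 2880, but not at 6918. At 6918 the WT group mean was 14.20 untreated and 14.48 with LPS, and the knockout mean 11.88 and 12.43. No difference in the LPS response was called on that probe. The difference between the genotypes' log2 changes was -1.33 ± 0.33 (SE, adjusted p = 0.0207) at 1536 and -1.32 ± 0.24 (SE, adjusted p = 0.00254) at 2880. With LPS+zVAD+Nec-1 it was -1.32 ± 0.33 (SE, adjusted p = 0.00971) and -1.90 ± 0.24 (SE, adjusted p = 4.28e-05), and with IFNβ+zVAD+Nec-1 the probe at 2880 had -0.80 ± 0.24 (SE, adjusted p = 0.0285). At 1536 the LPS difference was lost without Ifnar1-/- LPS replicate 1 (-1.14, adjusted p = 0.108), Ifnar1-/- untreated replicate 2 (-1.04, adjusted p = 0.116), WT LPS replicate 1 (-1.23, adjusted p = 0.0966) or WT untreated replicate 2 (-1.22, adjusted p = 0.0914), and the LPS+zVAD+Nec-1 difference without Ifnar1-/- untreated replicate 2 (-1.03, adjusted p = 0.0634). The IFNβ+zVAD+Nec-1 difference at 2880 was lost without 7 of the 8 arrays it rests on, all but Ifnar1-/- IFNβ+zVAD+Nec-1 replicate 2, with adjusted p-values of 0.0577 to 0.135. At 6918 the difference was 2.72 (adjusted p = 0.0501) with IFNβ+zVAD+Nec-1, in the other direction, and the adjusted p was 0.036 with the slide as a block. Interferon-stimulated genes were read as well, from a list of 12 chosen with earlier results known. In WT cells with IFNβ 11 of the 12 rose, with a median log2 change of 4.86, where 34.9% of all probes were called. Limma called 0 of the 12 in Ifnar1-/- cells with IFNβ (median 0.01), and 0 had an unadjusted p under 0.05. With IFNβ+zVAD 0 of the 12 were called in those cells (median 0.87), and 5 had an unadjusted p under 0.05. Of all tested probes 0 were called in both of these knockout comparisons, so the counts of 0 are not particular to this list. With IFNβ+zVAD+Nec-1 6 of the 12 rose in Ifnar1-/- cells (median 2.28), where 1.44% of all probes were called.

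Ifnb1, the gene for the ligand itself, had the largest range of the 10 probes. It rose in WT cells with every treatment but zVAD alone, and in Ifnar1-/- cells with LPS, LPS+zVAD and both mixtures that held Nec-1. Its probe lies on the minus strand of chromosome 4, from 88168023 to 88168082 (mm9). In WT cells it gave 4.22 and 5.39 untreated, 6.55 and 8.81 with zVAD, 9.32 and 9.81 with IFNβ, 10.38 and 9.004 with LPS, 10.12 and 11.53 with IFNβ+zVAD, 10.61 and 10.97 with IFNβ+zVAD+Nec-1, 12.29 and 12.44 with LPS+zVAD+Nec-1 and 14.02 and 15.51 with LPS+zVAD. Untreated cells were lowest and LPS+zVAD cells highest, with no overlap between either group and any other. The neighbours in this order overlapped between IFNβ and LPS, between LPS and IFNβ+zVAD, and between both mixtures with IFNβ and zVAD. The Ifnar1-/- values were 3.03 and 2.59 untreated, 3.14 and 2.71 with IFNβ, 7.11 and 2.81 with zVAD, 6.74 and 4.57 with IFNβ+zVAD, 8.35 and 8.12 with IFNβ+zVAD+Nec-1, 9.52 and 8.30 with LPS+zVAD+Nec-1, 11.499 and 11.65 with LPS and 12.43 and 12.38 with LPS+zVAD. The pairs of the first 4 of these groups overlapped one after another, as did those of the mixtures with Nec-1. The Ifnb1 signal was not well above background on either array of untreated and of IFNβ-treated knockout cells, nor on 1 array each with zVAD and with IFNβ+zVAD.

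**Figure D2:**
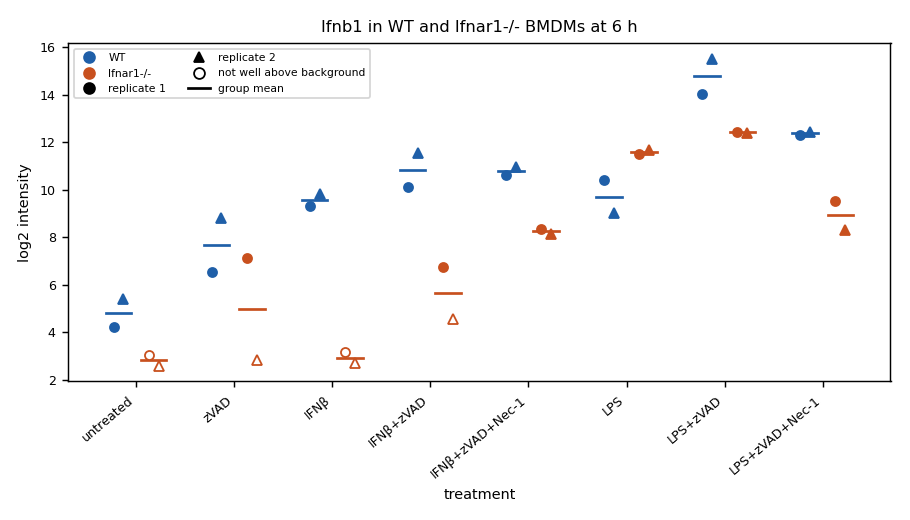
Log2 intensity of the Ifnb1 probe on each of the 32 arrays by treatment. Circles are replicate 1 and triangles replicate 2 of WT and Ifnar1-/- BMDMs, open where the probe was not well above background, with a bar at each group mean. WT LPS+zVAD arrays are highest, at 14.02 and 15.51, and untreated and IFNβ-treated knockout arrays are lowest, between 2.59 and 3.14.

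Relative to untreated WT cells, Ifnb1 rose 29.6-fold with LPS, a log2 change of 4.89 ± 1.02 (SE, adjusted p = 0.000799), and 27.1-fold with IFNβ, 4.76 ± 1.02 (SE, adjusted p = 0.00126). With LPS+zVAD it rose 996-fold, 9.96 ± 1.02 (SE, adjusted p = 2.27e-07). The log2 rise was 6.02 (adjusted p = 0.000139) with IFNβ+zVAD, 7.56 (adjusted p = 1.26e-05) with LPS+zVAD+Nec-1 and 5.98 (adjusted p = 0.000194) with IFNβ+zVAD+Nec-1. With zVAD alone the change was 2.87 (adjusted p = 0.705), with a 95% interval of 0.74 to 5.01. All of these WT changes start from untreated arrays at 4.22 and 5.39. Both were well above background. The lower was close to the mean of the lowest signals well above background on the untreated knockout arrays. The sizes of the WT rises, the 996-fold value among them, are therefore uncertain.

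In Ifnar1-/- cells the untreated level was below background, so the rises are bounds against the lowest signal well above background on each array. The adjusted p-values (limma) belong to the fitted differences, which use the values below background, and do not test the bounds. Ifnb1 was at least 166-fold higher with LPS (adjusted p = 2.96e-05), at least 296-fold higher with LPS+zVAD (adjusted p = 5.28e-06), at least 26.2-fold higher with LPS+zVAD+Nec-1 (adjusted p = 0.00535) and at least 16.4-fold higher with IFNβ+zVAD+Nec-1 (adjusted p = 0.00693). With zVAD and with IFNβ+zVAD 1 of 2 arrays measured it, and the adjusted p was 1 for both. With IFNβ both groups were below background and no fold is given. The LPS+zVAD+Nec-1 rise was lost without Ifnar1-/- LPS+zVAD+Nec-1 replicate 1 (adjusted p = 0.0514), Ifnar1-/- untreated replicate 1 (adjusted p = 0.0724) or Ifnar1-/- untreated replicate 2 (adjusted p = 0.0818). The IFNβ+zVAD+Nec-1 rise was lost without Ifnar1-/- IFNβ+zVAD+Nec-1 replicate 1 (adjusted p = 0.0941), Ifnar1-/- untreated replicate 1 (adjusted p = 0.0538) or Ifnar1-/- untreated replicate 2 (adjusted p = 0.105).

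Because the untreated knockout level was not above background, the fitted differences between the genotypes' Ifnb1 responses are not exact, and no size is given for them. The difference in the response to IFNβ was called, lower in the knockout (adjusted p = 0.0306), and in the knockout cells the IFNβ-treated arrays were not above background either. This call was lost without 7 of the 8 arrays it rests on, all but WT untreated replicate 2, with adjusted p-values of 0.0581 to 0.111, and it had an adjusted p of 0.105 under an alternative scaling that only aligns the 75th percentiles of the arrays (the 75th percentile shift). The LPS response had an adjusted p of 0.127 for a larger rise in the knockout, and of 0.0385 when the slide was a block. For LPS+zVAD the adjusted p was 0.91. Compared directly, WT cells with IFNβ were at least 19.9-fold above knockout cells with IFNβ (adjusted p = 3.44e-05 for the fitted difference, not the bound). With IFNβ+zVAD Ifnb1 was lower in the knockout by -5.17 (adjusted p = 0.000439) on the log2 scale. There 1 of 2 knockout arrays measured it, so the size is not exact. With LPS+zVAD+Nec-1 Ifnb1 was lower by -3.45 (adjusted p = 0.0109). The last of these was lost without Ifnar1-/- LPS+zVAD+Nec-1 replicate 2 (-2.84, adjusted p = 0.101) or WT LPS+zVAD+Nec-1 replicate 2 (-3.38, adjusted p = 0.0501). With LPS alone the knockout level was 1.88 (adjusted p = 0.186) from WT on the log2 scale, and with IFNβ+zVAD+Nec-1 it was -2.55 (adjusted p = 0.0513), with a blocked adjusted p of 0.0487. With LPS+zVAD the WT arrays gave 14.02 and 15.51 and the knockout arrays 12.43 and 12.38. These did not overlap, and the difference was not called.

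Adding zVAD to LPS raised Ifnb1 further in WT cells, by 5.07 ± 1.02 (SE, adjusted p = 0.000711) or 33.7-fold over LPS alone. The same step in Ifnar1-/- cells was 0.83 (adjusted p = 0.746), with a 95% interval of -1.30 to 2.96. Adding Nec-1 to LPS+zVAD lowered Ifnb1 in Ifnar1-/- cells by -3.49 ± 1.02 (SE, adjusted p = 0.0233). In WT cells that step was -2.40 (adjusted p = 0.087), with an adjusted p of 0.0326 once slide entered the model as a block. The knockout call was lost without Ifnar1-/- LPS+zVAD replicate 1 (-3.47, adjusted p = 0.119), Ifnar1-/- LPS+zVAD replicate 2 (-3.52, adjusted p = 0.0919) or Ifnar1-/- LPS+zVAD+Nec-1 replicate 2 (-2.89, adjusted p = 0.176). Whether these steps differed between the genotypes was not tested. Adding zVAD to IFNβ gave 1.26 (adjusted p = 1) in WT cells.

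Across the 8 genes, more changes were called in WT than in Ifnar1-/- cells. The share called over all probes was also lower in Ifnar1-/- cells for every treatment, so this contrast is not particular to the members. Of the 10 probes, 3 read Ifnar1, the gene disrupted in the knockout. Over 70 pairs of a probe and a treatment, limma called 36 (51.4%) in WT cells, 25 higher and 11 lower, against 8 (11.4%), all higher, in Ifnar1-/- cells. In WT cells 7 of 10 probes were called with LPS, where 40.9% of all probes were, 5 with IFNβ (34.9% of all), 7 with LPS+zVAD (51.5%), 5 with IFNβ+zVAD (37.3%), 6 with LPS+zVAD+Nec-1 (40.5%) and 6 with IFNβ+zVAD+Nec-1 (31.3%). With zVAD alone 0 were called (0.00466% of all), and 3 had an unadjusted p under 0.05. Among the knockout groups 4 were called with LPS (23.9%), 2 with LPS+zVAD (27.2%), 1 with LPS+zVAD+Nec-1 (1.13%) and 1 with IFNβ+zVAD+Nec-1 (1.44%). None was called with IFNβ, zVAD or IFNβ+zVAD, where 0%, 0% and 0% of all probes were, and 0, 1 and 2 members had an unadjusted p under 0.05. Over all tested probes, 324, 78 and 752 had one there. Each WT count with a call lay above the share over all probes by fewer than 3 probes of 10, so the counts alone do not set the members apart.

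The balance of directions depended on the scaling. Under the 75th percentile shift the WT calls were 25 higher and 3 lower. That scaling moved the median log2 change of all probes from -0.16 to 0.11 with LPS+zVAD in WT cells. With the slide as a block, 14 pairs were called in Ifnar1-/- cells in place of 8, of which 11 were higher and 3 lower, and without Ifnar1-/- untreated replicate 1 or replicate 2 there were 4.

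**Figure D3:**
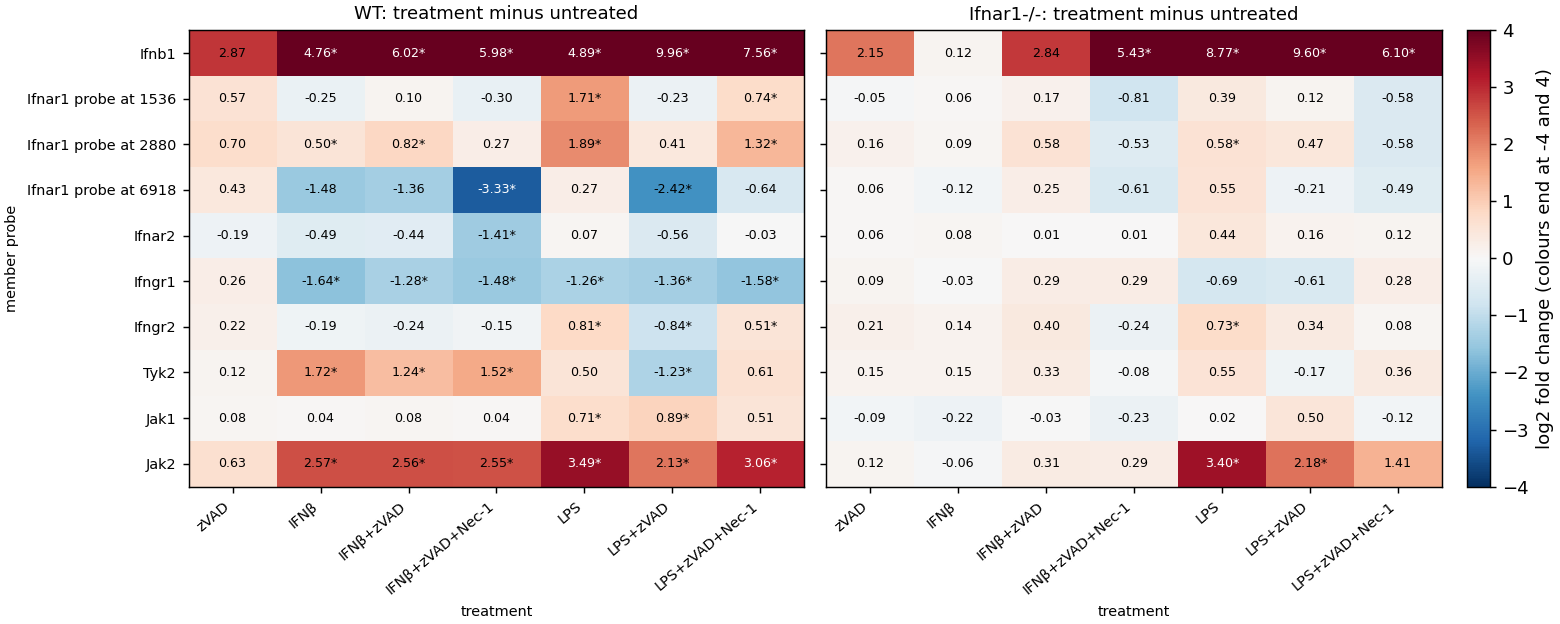
Log2 fold changes of the 10 member probes against untreated cells of the same genotype (rows, probes; columns, 7 treatments of WT and of Ifnar1-/- BMDMs). Each cell prints the value, colour gives it up to 4 in either direction, and a star marks an adjusted p under 0.05 (limma). Jak2 and Ifnb1 carry the strongest rises, and 8 Ifnar1-/- changes carry a star. The Ifnar1-/- values of Ifnb1 are taken from an untreated level below background and are not exact.

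Ifnar2 encodes the high-affinity chain of the IFNβ receptor, which holds JAK1. Its probe is on chromosome 16, at 91394044 to 91394103. WT arrays gave 14.65 and 14.84 untreated, 14.32 and 15.32 with LPS, 14.32 and 14.19 with IFNβ, 14.59 and 14.52 with zVAD, 14.32 and 14.05 with LPS+zVAD, 14.46 and 14.15 with IFNβ+zVAD, 14.61 and 14.83 with LPS+zVAD+Nec-1 and 12.49 and 14.18 with IFNβ+zVAD+Nec-1. Ifnar1-/- arrays ran from 14.10 to 14.64. WT LPS replicate 2 was the highest array and WT IFNβ+zVAD+Nec-1 replicate 1 the lowest, and the others lay within 14.05 to 14.84. The 1 call against untreated was in that group, -1.41 ± 0.35 (SE, adjusted p = 0.00479), and it was -0.57 (adjusted p = 0.16) without that array. Loss of the other chain was not accompanied by a called difference in Ifnar2, which was -0.59 (adjusted p = 0.386) in untreated knockout cells against WT, with a 95% interval of -1.32 to 0.15. The genotype difference in the IFNβ+zVAD+Nec-1 response was 1.42 (adjusted p = 0.057), and the adjusted p was 0.0311 with the slide as a block. Over the 8 WT group means Ifnar2 and the Ifnar1 probe at 6918 had a Pearson r of 0.90, given as a description, since both share the low array.

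Ifngr1, the ligand-binding chain of the interferon gamma receptor (chromosome 10, 19329923 to 19329982), was lower in WT cells with every treatment but zVAD. WT arrays gave 14.63 and 15.03 untreated, 13.17 and 13.97 with LPS, 12.29 and 14.08 with IFNβ, 14.76 and 15.42 with zVAD, 13.34 and 13.59 with LPS+zVAD, 12.86 and 14.23 with IFNβ+zVAD, 12.99 and 13.52 with LPS+zVAD+Nec-1 and 12.69 and 14.01 with IFNβ+zVAD+Nec-1. The same order of treatments in Ifnar1-/- cells gave 14.57 and 14.58, 13.91 and 13.86, 14.52 and 14.57, 14.73 and 14.60, 13.96 and 13.97, 14.80 and 14.92, 14.87 and 14.83, and 14.83 and 14.90. In WT cells each group with LPS or IFNβ was below both untreated arrays, although the pairs with IFNβ were wide apart. In knockout cells the groups with LPS and LPS+zVAD were below the untreated arrays, while the groups with IFNβ overlapped these or lay above them.

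The log2 changes of Ifngr1 in WT cells were -1.26 ± 0.49 (SE, adjusted p = 0.0463) with LPS, -1.64 (adjusted p = 0.0134) with IFNβ, -1.36 (adjusted p = 0.0252) with LPS+zVAD, -1.28 (adjusted p = 0.0459) with IFNβ+zVAD, -1.58 (adjusted p = 0.0146) with LPS+zVAD+Nec-1 and -1.48 (adjusted p = 0.0269) with IFNβ+zVAD+Nec-1. None of the 6 passed the test under the 75th percentile shift, where they ran from -1.21 (adjusted p = 0.146) with IFNβ to -0.69 (adjusted p = 0.423) with LPS. The IFNβ fall was lost without WT IFNβ replicate 1 (-0.74, adjusted p = 0.3) or WT untreated replicate 2 (-1.44, adjusted p = 0.1), and it was -2.54 without WT IFNβ replicate 2. The LPS fall was lost without WT LPS replicate 1 (-0.86, adjusted p = 0.318), WT untreated replicate 1 (-1.46, adjusted p = 0.0765) or WT untreated replicate 2 (-1.06, adjusted p = 0.217). The LPS+zVAD fall was lost without WT LPS+zVAD replicate 1 (-1.24, adjusted p = 0.111), WT LPS+zVAD replicate 2 (-1.49, adjusted p = 0.0589) or WT untreated replicate 2 (-1.16, adjusted p = 0.142). The IFNβ+zVAD fall was lost without WT IFNβ+zVAD replicate 1 (-0.60, adjusted p = 0.452), WT untreated replicate 1 (-1.48, adjusted p = 0.0779) or WT untreated replicate 2 (-1.08, adjusted p = 0.218), and was -1.97 without its replicate 2. The LPS+zVAD+Nec-1 fall was lost without WT LPS+zVAD+Nec-1 replicate 1 (-1.31, adjusted p = 0.115) or WT untreated replicate 2 (-1.37, adjusted p = 0.103), and the IFNβ+zVAD+Nec-1 fall without replicate 1 of the IFNβ+zVAD+Nec-1 arrays from WT cells (-0.82, adjusted p = 0.329), WT untreated replicate 1 (-1.68, adjusted p = 0.056) or WT untreated replicate 2 (-1.28, adjusted p = 0.159).

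No change of Ifngr1 was called in Ifnar1-/- cells. Its log2 change was -0.69 (adjusted p = 0.362) with LPS, with an adjusted p of 0.0499 when the slide was a block, and -0.03 (adjusted p = 1) with IFNβ, with a 95% interval of -1.05 to 0.99. The genotype differences in response were 1.61 (adjusted p = 0.117) with IFNβ, 1.57 (adjusted p = 0.124) with IFNβ+zVAD, 1.85 (adjusted p = 0.073) with LPS+zVAD+Nec-1 and 1.77 (adjusted p = 0.0867) with IFNβ+zVAD+Nec-1. With the slide as a block these 4 had adjusted p-values of 0.00357, 0.00408, 0.00132 and 0.00188. Set directly against WT, knockout cells had more Ifngr1 signal by 1.35 (adjusted p = 0.0309) with IFNβ, 1.31 (adjusted p = 0.036) with IFNβ+zVAD, 1.60 (adjusted p = 0.0136) with LPS+zVAD+Nec-1 and 1.51 (adjusted p = 0.0182) with IFNβ+zVAD+Nec-1. Each of these was lost without 1 array. The IFNβ difference was lost without Ifnar1-/- IFNβ replicate 1 (1.38, adjusted p = 0.091), Ifnar1-/- IFNβ replicate 2 (1.33, adjusted p = 0.108) or WT IFNβ replicate 1 (0.46, adjusted p = 0.524) and was 2.25 without WT IFNβ replicate 2. The IFNβ+zVAD difference was lost without Ifnar1-/- IFNβ+zVAD replicate 1 (1.37, adjusted p = 0.0892), Ifnar1-/- IFNβ+zVAD replicate 2 (1.25, adjusted p = 0.133) or WT IFNβ+zVAD replicate 1 (0.63, adjusted p = 0.411) and was 2.001 without WT replicate 2. The others were lost without Ifnar1-/- LPS+zVAD+Nec-1 replicate 2 (1.61, adjusted p = 0.0568) or WT LPS+zVAD+Nec-1 replicate 1 (1.33, adjusted p = 0.112) and without Ifnar1-/- IFNβ+zVAD+Nec-1 replicate 1 (1.55, adjusted p = 0.0625), Ifnar1-/- IFNβ+zVAD+Nec-1 replicate 2 (1.48, adjusted p = 0.0766) or replicate 1 of the IFNβ+zVAD+Nec-1 arrays from WT cells (0.86, adjusted p = 0.27). With the 75th percentile shift none of the 4 was called.

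Ifngr2, the signalling chain of that receptor, lies near Ifnar1 on chromosome 16 (91563982 to 91564041) and in WT cells it was above untreated with LPS and below it with LPS+zVAD. WT arrays gave 14.21 and 14.41 untreated, 14.99 and 15.24 with LPS, 13.91 and 14.33 with IFNβ, 14.49 and 14.55 with zVAD, 13.51 and 13.43 with LPS+zVAD, 13.92 and 14.20 with IFNβ+zVAD, 14.74 and 14.90 with LPS+zVAD+Nec-1 and 13.95 and 14.37 with IFNβ+zVAD+Nec-1. Knockout arrays in that order gave 13.96 and 14.01, 14.68 and 14.73, 14.05 and 14.19, 14.19 and 14.19, 14.20 and 14.45, 14.35 and 14.43, 14.36 and 13.76, and 13.61 and 13.88. WT LPS arrays were above and WT LPS+zVAD arrays below all others of that genotype.

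In WT cells Ifngr2 rose with LPS by 0.81 ± 0.20 (SE, adjusted p = 0.00333) and with LPS+zVAD+Nec-1 by 0.51 (adjusted p = 0.0493), and it fell with LPS+zVAD, -0.84 ± 0.20 (SE, adjusted p = 0.0018). The last was -0.36 (adjusted p = 0.312) under the 75th percentile shift. The LPS+zVAD+Nec-1 rise was lost without WT LPS+zVAD+Nec-1 replicate 1 (0.60, adjusted p = 0.0862), WT LPS+zVAD+Nec-1 replicate 2 (0.43, adjusted p = 0.208), WT untreated replicate 1 (0.41, adjusted p = 0.229) or WT untreated replicate 2 (0.61, adjusted p = 0.0779). Adding zVAD to LPS lowered it, -1.65 ± 0.20 (SE, adjusted p = 6.16e-06), and adding Nec-1 to that mixture raised it, 1.35 ± 0.20 (SE, adjusted p = 7.45e-05). The knockout rise with LPS was 0.73 (adjusted p = 0.013), which was lost without Ifnar1-/- LPS replicate 1 (0.75, adjusted p = 0.0593), Ifnar1-/- LPS replicate 2 (0.70, adjusted p = 0.0755), Ifnar1-/- untreated replicate 1 (0.70, adjusted p = 0.0779) or Ifnar1-/- untreated replicate 2 (0.75, adjusted p = 0.056). With LPS+zVAD the knockout value was 0.34 (adjusted p = 0.228) from untreated. The genotypes differed in the LPS+zVAD response, 1.18 ± 0.29 (SE, adjusted p = 0.00829), with 0.97 (adjusted p = 0.127) under the 75th percentile shift, and this was lost without Ifnar1-/- LPS+zVAD replicate 2 (1.05, adjusted p = 0.0506). The response to IFNβ+zVAD differed by 0.65 (adjusted p = 0.124), with an adjusted p of 0.0434 in the blocked fit. Directly against WT the knockout was higher with LPS+zVAD by 0.86 (adjusted p = 0.00232) and lower with LPS+zVAD+Nec-1, -0.76 (adjusted p = 0.00563), the latter lost without Ifnar1-/- LPS+zVAD+Nec-1 replicate 2 (-0.46, adjusted p = 0.124). The LPS+zVAD difference was 0.59 (adjusted p = 0.116) under the 75th percentile shift.

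Tyk2, the kinase on IFNAR1 (chromosome 9, 20909321 to 20909380), rose with IFNβ in WT cells alone or in mixtures. WT arrays gave 11.43 and 11.79 untreated, 12.31 and 11.92 with LPS, 13.16 and 13.50 with IFNβ, 11.39 and 12.07 with zVAD, 10.86 and 9.91 with LPS+zVAD, 12.92 and 12.78 with IFNβ+zVAD, 12.32 and 12.11 with LPS+zVAD+Nec-1 and 13.25 and 13.02 with IFNβ+zVAD+Nec-1. Knockout arrays in that order gave 11.67 and 12.09, 12.34 and 12.52, 11.999 and 12.06, 12.07 and 11.997, 11.58 and 11.84, 12.23 and 12.19, 12.54 and 11.95, and 11.60 and 11.998. In WT cells the 3 groups with IFNβ were above and LPS+zVAD was below every other group.

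The log2 rises of Tyk2 in WT cells were 1.72 ± 0.29 (SE, adjusted p = 0.000133) with IFNβ, 1.24 ± 0.29 (SE, adjusted p = 0.00221) with IFNβ+zVAD and 1.52 ± 0.29 (SE, adjusted p = 0.000508) with IFNβ+zVAD+Nec-1. With LPS+zVAD it fell, -1.23 ± 0.29 (SE, adjusted p = 0.00142), and this was lost without WT LPS+zVAD replicate 2 (-0.75, adjusted p = 0.0541). LPS alone gave 0.50 (adjusted p = 0.178). Adding zVAD to LPS lowered Tyk2, -1.73 ± 0.29 (SE, adjusted p = 0.000128), and adding Nec-1 raised it again, 1.83 ± 0.29 (SE, adjusted p = 0.000116). No change against untreated was called in Ifnar1-/- cells, where IFNβ gave 0.15 (adjusted p = 1), with a 95% interval of -0.45 to 0.75. The genotypes differed in the response to IFNβ, -1.57 ± 0.41 (SE, adjusted p = 0.011), and to IFNβ+zVAD+Nec-1, -1.61 ± 0.41 (SE, adjusted p = 0.00985). The former was lost without Ifnar1-/- untreated replicate 2 (-1.36, adjusted p = 0.054) or WT untreated replicate 1 (-1.39, adjusted p = 0.0527), and the latter without Ifnar1-/- IFNβ+zVAD+Nec-1 replicate 1 (-1.41, adjusted p = 0.0505) or Ifnar1-/- untreated replicate 2 (-1.40, adjusted p = 0.0511). Directly against WT the knockout level was lower with IFNβ, -1.30 (adjusted p = 0.00116), and with IFNβ+zVAD+Nec-1, -1.34 (adjusted p = 0.00108), and higher with LPS+zVAD, 1.32 (adjusted p = 0.00123), which was 0.84 without WT LPS+zVAD replicate 2.

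Jak1, which serves both receptors (chromosome 4, 100825094 to 100825153), moved little. WT arrays gave 14.27 and 14.32 untreated, 14.87 and 15.15 with LPS, 14.19 and 14.49 with IFNβ, 14.20 and 14.56 with zVAD, 14.88 and 15.50 with LPS+zVAD, 14.21 and 14.54 with IFNβ+zVAD, 14.61 and 14.998 with LPS+zVAD+Nec-1 and 14.20 and 14.48 with IFNβ+zVAD+Nec-1. Knockout arrays ran from 14.06 to 14.95 and were highest with LPS+zVAD, at 14.79 and 14.95. In WT cells both arrays with LPS and with LPS+zVAD were above all untreated and IFNβ-treated ones. Jak1 rose with LPS by 0.71 ± 0.22 (SE, adjusted p = 0.0132) and with LPS+zVAD by 0.89 ± 0.22 (SE, adjusted p = 0.00203). The LPS rise was lost without WT LPS replicate 2 (0.57, adjusted p = 0.104), WT untreated replicate 1 (0.69, adjusted p = 0.0641) or WT untreated replicate 2 (0.74, adjusted p = 0.0517), and the LPS+zVAD rise without WT LPS+zVAD replicate 2 (0.58, adjusted p = 0.0605). IFNβ gave 0.04 (adjusted p = 0.91) in WT cells, with a 95% interval of -0.41 to 0.50. The knockout change with LPS+zVAD was 0.50 (adjusted p = 0.0985), with an adjusted p of 0.00961 when the slide was a block. The blocked fit also called the WT rise with LPS+zVAD+Nec-1, 0.51 (blocked adjusted p = 0.00636), and smaller responses of the knockout to LPS, -0.69 (blocked adjusted p = 0.0267), and to LPS+zVAD+Nec-1, -0.63 (blocked adjusted p = 0.0241). Against WT the knockout was lower with LPS, -0.62 (adjusted p = 0.038), and with LPS+zVAD+Nec-1, -0.56 (adjusted p = 0.0462). The first was lost without Ifnar1-/- LPS replicate 1 (-0.77, adjusted p = 0.0503), Ifnar1-/- LPS replicate 2 (-0.47, adjusted p = 0.259), WT LPS replicate 1 (-0.76, adjusted p = 0.062) or WT LPS replicate 2 (-0.49, adjusted p = 0.194), the second without Ifnar1-/- LPS+zVAD+Nec-1 replicate 1 (-0.44, adjusted p = 0.199), Ifnar1-/- LPS+zVAD+Nec-1 replicate 2 (-0.69, adjusted p = 0.06) or WT LPS+zVAD+Nec-1 replicate 2 (-0.37, adjusted p = 0.299).

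Jak2, the kinase on the IFNGR2 chain (chromosome 19, 29387487 to 29387546), rose with LPS in both genotypes and with IFNβ in WT cells. WT arrays gave 11.81 and 11.84 untreated, 15.34 and 15.28 with LPS, 14.23 and 14.56 with IFNβ, 12.16 and 12.75 with zVAD, 14.11 and 13.81 with LPS+zVAD, 14.29 and 14.49 with IFNβ+zVAD, 14.97 and 14.81 with LPS+zVAD+Nec-1 and 14.35 and 14.40 with IFNβ+zVAD+Nec-1. Knockout arrays in that order gave 11.23 and 11.39, 14.74 and 14.69, 11.19 and 11.32, 11.495 and 11.37, 13.37 and 13.61, 11.66 and 11.60, 13.67 and 11.76, and 11.48 and 11.71. Every WT group with LPS or IFNβ was above all untreated and zVAD arrays, with the 3 IFNβ groups overlapping each other. In knockout cells the untreated and IFNβ groups lay between 11.19 and 11.71, and the LPS+zVAD+Nec-1 arrays were wide apart.

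**Figure D4:**
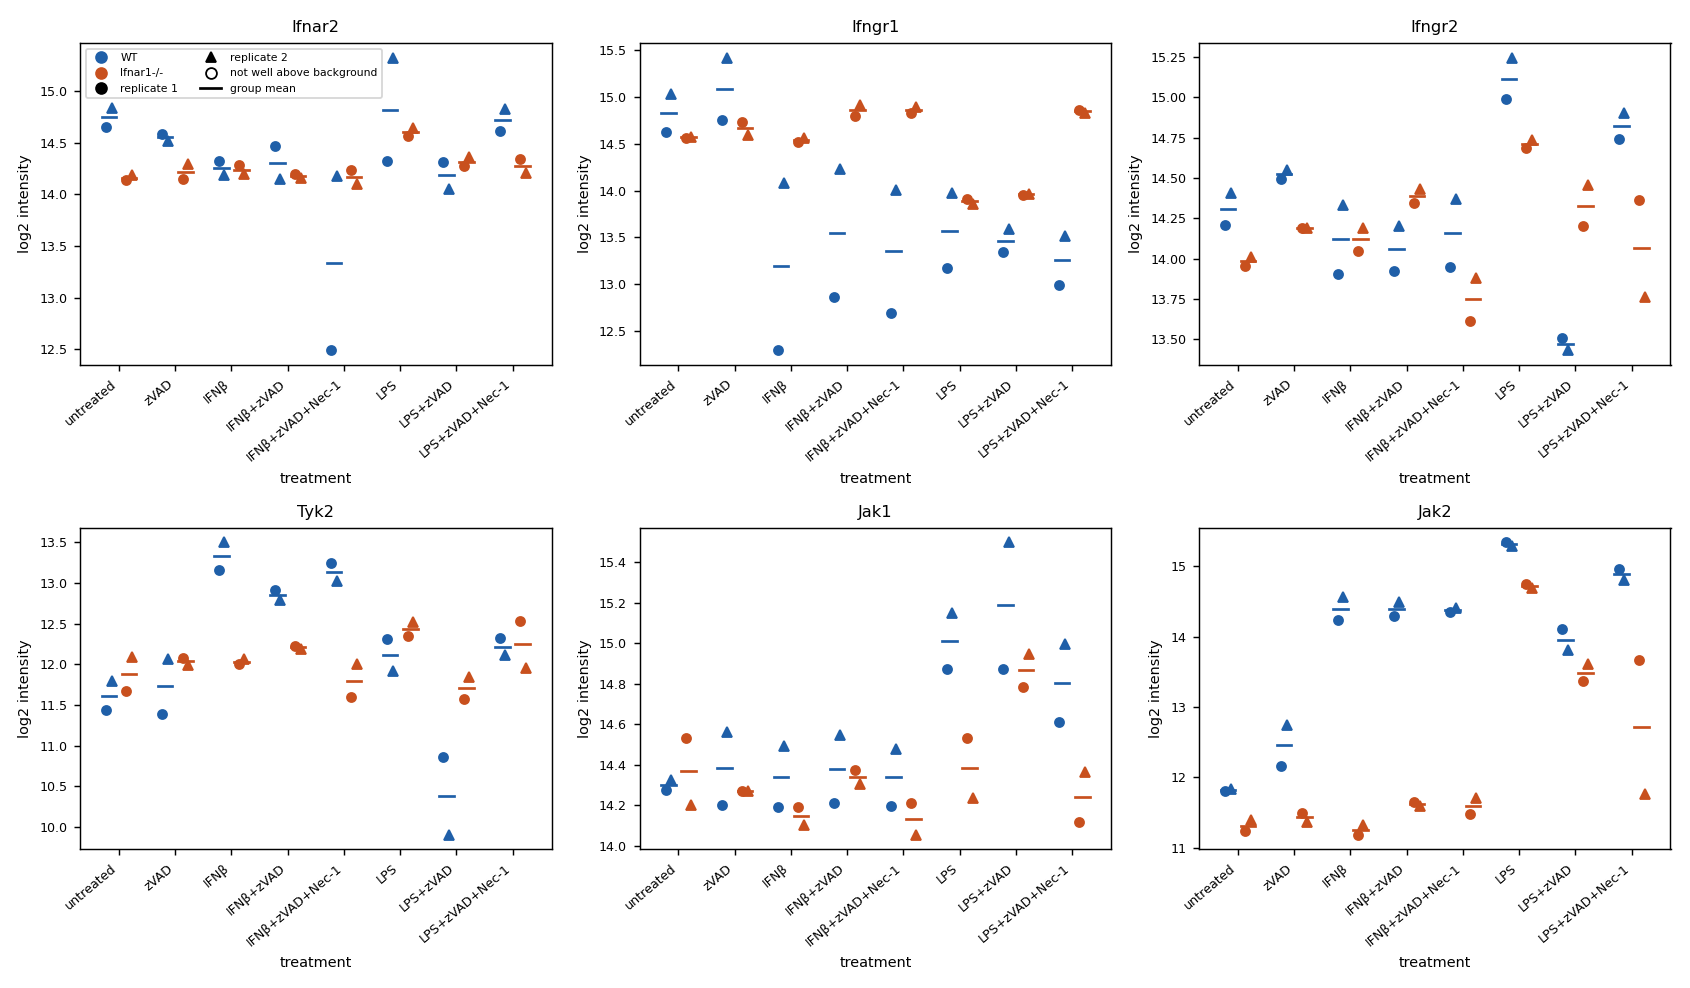
Log2 intensity of Ifnar2, Ifngr1, Ifngr2, Tyk2, Jak1 and Jak2 on each of the 32 arrays by treatment, 1 panel a gene. Circles are replicate 1 and triangles replicate 2 of WT and Ifnar1-/- BMDMs, with a bar at each group mean, and each panel has its own axis. Jak2 spans 11.19 to 15.34, and its WT and Ifnar1-/- arrays do not overlap in any treatment and lie furthest apart in the IFNβ groups. The Jak2 difference between the genotypes was called only in those groups and with LPS+zVAD+Nec-1. Ifnar2 changes little outside 2 WT arrays, LPS replicate 2 and IFNβ+zVAD+Nec-1 replicate 1.

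In WT cells the log2 rises of Jak2 were 3.49 ± 0.36 (SE, adjusted p = 9.21e-07) with LPS, 2.57 ± 0.36 (SE, adjusted p = 2.21e-05) with IFNβ, 2.13 (adjusted p = 6.52e-05) with LPS+zVAD, 2.56 (adjusted p = 2.14e-05) with IFNβ+zVAD, 3.06 (adjusted p = 2.91e-06) with LPS+zVAD+Nec-1 and 2.55 (adjusted p = 2.86e-05) with IFNβ+zVAD+Nec-1. In Ifnar1-/- cells it rose with LPS by 3.40 ± 0.36 (SE, adjusted p = 1.57e-05) and with LPS+zVAD by 2.18 ± 0.36 (SE, adjusted p = 0.000279). IFNβ gave -0.06 (adjusted p = 1) there, with a 95% interval of -0.81 to 0.70, and LPS+zVAD+Nec-1 gave 1.41 (adjusted p = 0.067), with an adjusted p of 0.0321 when the slide was a block. The genotypes differed in the response to IFNβ, -2.63 ± 0.51 (SE, adjusted p = 0.00137), to IFNβ+zVAD, -2.25 ± 0.51 (SE, adjusted p = 0.00458), to IFNβ+zVAD+Nec-1, -2.27 ± 0.51 (SE, adjusted p = 0.00452), and to LPS+zVAD+Nec-1, -1.66 ± 0.51 (SE, adjusted p = 0.0307). With LPS the difference was -0.08 (adjusted p = 0.972), with a 95% interval of -1.15 to 0.98. The LPS+zVAD+Nec-1 difference was lost without 7 of its 8 arrays, all but Ifnar1-/- LPS+zVAD+Nec-1 replicate 1, with adjusted p-values of 0.0548 to 0.123. It was -0.70 without Ifnar1-/- LPS+zVAD+Nec-1 replicate 2 and -2.61 without replicate 1.

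Directly against WT, Jak2 was lower in the knockout with IFNβ, -3.14 (adjusted p = 1.32e-06), IFNβ+zVAD, -2.76 (adjusted p = 6.43e-06), IFNβ+zVAD+Nec-1, -2.78 (adjusted p = 7.12e-06), and LPS+zVAD+Nec-1, -2.17 (adjusted p = 0.000105). The last was -1.22 without Ifnar1-/- replicate 2. Adding zVAD to LPS lowered Jak2 in WT cells, -1.35 (adjusted p = 0.00654), and in Ifnar1-/- cells, -1.22 (adjusted p = 0.0435). The WT step was lost without WT LPS+zVAD replicate 2 (-1.20, adjusted p = 0.0645), and the knockout step without Ifnar1-/- LPS replicate 1 (-1.20, adjusted p = 0.198), Ifnar1-/- LPS replicate 2 (-1.25, adjusted p = 0.173), Ifnar1-/- LPS+zVAD replicate 1 (-1.10, adjusted p = 0.29) or Ifnar1-/- LPS+zVAD replicate 2 (-1.35, adjusted p = 0.112).

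The responses of the genotypes were set against each other for all members. Of 70 pairs of a probe and a treatment 13 (18.6%) were called, 12 with a lower change in the knockout and 1, Ifngr2 with LPS+zVAD, with a higher one. Among the 12 were the Ifnar1 probes at 1536 and 2880, which read the disrupted gene. Both were called with LPS and with LPS+zVAD+Nec-1, and the probe at 2880 also with IFNβ+zVAD+Nec-1. The members called were 2 of 10 with LPS (6.33% of all probes), 3 with IFNβ (18.4%), 1 with LPS+zVAD (15.9%), 1 with IFNβ+zVAD (18.9%), 3 with LPS+zVAD+Nec-1 (17.2%) and 3 with IFNβ+zVAD+Nec-1 (17.7%). With zVAD alone 0 members and 0% of all probes were called, where 1 member and 208 of all probes had an unadjusted p under 0.05. With the slide as a block 23 of the 70 were called, 9 with a higher and 14 with a lower change in the knockout, and without Ifnar1-/- untreated replicate 2 there were 6.

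Adding zVAD or Nec-1 within a genotype gave 17 calls over 80 pairs (21.3%). LPS+zVAD against LPS changed 7 of 10 probes in WT cells (34.7% of all probes), Ifnb1 upwards and 6 downwards, and 1 in Ifnar1-/- cells (7.83%). The 6 that fell in WT cells were Tyk2, Ifngr2, Jak2 and the Ifnar1 probes at 1536, -1.94 (adjusted p = 5.62e-06), at 2880, -1.48 (adjusted p = 3.57e-06), and at 6918, -2.70 (adjusted p = 0.00346), which was lost without WT LPS+zVAD replicate 2 (-2.10, adjusted p = 0.068). Adding Nec-1 to LPS+zVAD raised 4 in WT cells (28.6%), Tyk2, Ifngr2 and Ifnar1 at 1536, 0.97 (adjusted p = 0.00428), and at 2880, 0.90 (adjusted p = 0.000605). The rise at 1536 was lost without WT LPS+zVAD replicate 2 (0.76, adjusted p = 0.0771). The same step lowered 3 in Ifnar1-/- cells (18.1%), Ifnb1 and Ifnar1 at 1536, -0.70 (adjusted p = 0.0471), and at 2880, -1.04 (adjusted p = 0.000569). The fall at 1536 was lost without Ifnar1-/- LPS+zVAD replicate 1 (-0.93, adjusted p = 0.0598), Ifnar1-/- LPS+zVAD replicate 2 (-0.47, adjusted p = 0.315), Ifnar1-/- LPS+zVAD+Nec-1 replicate 1 (-0.57, adjusted p = 0.163) or Ifnar1-/- LPS+zVAD+Nec-1 replicate 2 (-0.83, adjusted p = 0.0834). Adding zVAD to IFNβ changed 0 members in WT cells (0.0186% of all probes) and 0 in Ifnar1-/- cells (0.00466%), with 0 and 2 members at an unadjusted p under 0.05. Adding Nec-1 to IFNβ+zVAD changed 0 in WT cells (0% of all), where 3 members and 804 of all probes had an unadjusted p under 0.05. It changed 2 in Ifnar1-/- cells (1.29%), Ifnar1 at 1536, -0.98 (adjusted p = 0.0445), and at 2880, -1.11 (adjusted p = 0.00299). The former was lost without Ifnar1-/- IFNβ+zVAD replicate 1 (-0.93, adjusted p = 0.231), Ifnar1-/- IFNβ+zVAD replicate 2 (-1.04, adjusted p = 0.197), Ifnar1-/- IFNβ+zVAD+Nec-1 replicate 1 (-0.84, adjusted p = 0.421) or Ifnar1-/- IFNβ+zVAD+Nec-1 replicate 2 (-1.12, adjusted p = 0.074), the latter without Ifnar1-/- IFNβ+zVAD+Nec-1 replicate 1 (-0.95, adjusted p = 0.0807). The blocked fit called 25 of the 80. In WT cells it added, for Nec-1 with LPS+zVAD, Ifnb1, Jak1 at -0.38 (blocked adjusted p = 0.0393), Jak2 at 0.93 (blocked adjusted p = 0.048) and Ifnar1 at 6918 with 1.78 (blocked adjusted p = 0.0408). In Ifnar1-/- cells it added Jak1 for zVAD with LPS, 0.48 (blocked adjusted p = 0.0261), Ifngr1 and Jak1 for Nec-1 with LPS+zVAD, 0.89 (blocked adjusted p = 0.0163) and -0.62 (blocked adjusted p = 0.00337), and Ifngr2 for Nec-1 with IFNβ+zVAD, -0.64 (blocked adjusted p = 0.0434).

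Within a treatment, 38 of 80 comparisons of Ifnar1-/- with WT (47.5%) were called, 6 higher and 32 lower in the knockout, and 1 higher and 34 lower under the 75th percentile shift. The 32 include the Ifnar1 probes at 1536, 2880 and 6918, lower in 8, 8 and 4 of the 8 treatments. These read the disrupted gene itself, so the balance of directions is not a result about the other members. The members called were 3 of 10 in untreated cells (8.73% of all probes), all of them Ifnar1 probes, and 3 with zVAD (8.32%), again the Ifnar1 probes. They were 4 with LPS (28.6%), 6 with IFNβ (44.1%), 4 with LPS+zVAD (37.9%), 5 with IFNβ+zVAD (43.6%), 8 with LPS+zVAD+Nec-1 (40.1%) and 5 with IFNβ+zVAD+Nec-1 (41.8%). Genotype and slide cannot be told apart in these 8 comparisons.

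The rest of the pathway was read from lists chosen with earlier results of these data known, each gene by its brightest probe, with a median of all probes of -0.07 with LPS, -0.18 with IFNβ and -0.16 with LPS+zVAD in WT cells. Of all probes, 40.9%, 34.9% and 51.5% were called in these comparisons. In Ifnar1-/- cells 23.9% of all probes were called with LPS and 0% with IFNβ. The counts of each list are to be read beside these shares. Of 10 interferon ligands other than Ifnb1 that were tested, 1 was called with LPS, 0 with IFNβ and 2 with LPS+zVAD in WT cells, with median log2 changes of 0.18, 0.00 and 0.64. With IFNβ 0 of them had an unadjusted p under 0.05. The 1 with LPS was Ifna1, 0.99 (adjusted p = 0.0315), and values of this family of near-identical genes are uncertain. Of the signal transducers, Stat3 rose by 1.81 (adjusted p = 3.03e-05) and Stat2 by 1.61 (adjusted p = 0.00191) with LPS in WT cells.

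Of 17 inhibitors of these receptors, 8 rose and 3 fell with LPS (median 0.67), 5 rose and 5 fell with IFNβ (median 0.12), and 8 rose and 7 fell with LPS+zVAD (median 0.43) in WT cells. With LPS the largest were Socs3, 6.77 (adjusted p = 0.000449), and Socs1, 5.09 (adjusted p = 6.01e-05), which bind JAK kinases, then Usp18, 4.18 (adjusted p = 3.13e-07), which acts on IFNAR2, and Cish, 2.31 (adjusted p = 0.00278). Of the same genes in Ifnar1-/- cells, 7 rose with LPS and 0 were called with IFNβ, where 0 had an unadjusted p under 0.05. Of 19 genes linked to Ifnb1 transcription, not all of which promote it, 8 rose with LPS (median 0.43) in WT cells. There 7 rose and 2 fell with IFNβ (median 0.44), and 8 rose and 4 fell with LPS+zVAD (median 0.71). The rises with LPS were led by the transcription factor Irf7, 3.04 (adjusted p = 1.79e-05), the kinase Ikbke, 2.13 (adjusted p = 0.00946), the NF-kB subunit Nfkb1, 2.01 (adjusted p = 0.00084), and the LPS co-receptor Cd14, 1.47 (adjusted p = 0.0322). The knockout cells had 5 rises with LPS and 0 were called with IFNβ, where 0 had an unadjusted p under 0.05.

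Of 7 related receptor chains and kinases, 2 rose and 3 fell with LPS (median -0.17), 2 rose and 2 fell with IFNβ (median 0.50) and 2 rose and 3 fell with LPS+zVAD (median 0.14) in WT cells. With LPS, Il13ra1 rose by 2.56 (adjusted p = 0.000364) and Jak3 by 1.16 (adjusted p = 0.00368), while Il6ra fell, -1.66 (adjusted p = 0.000282), as did Il6st, -1.01 (adjusted p = 0.024). Knockout cells had 2 falls with LPS, and 0 were called with IFNβ, where 0 had an unadjusted p under 0.05. Of the 12 interferon-stimulated genes, 11 rose with LPS (median 4.13) and 11 with LPS+zVAD (median 4.50) in WT cells. With LPS these were led by Rsad2, 5.35 (adjusted p = 1.75e-05), Mx1, 5.04 (adjusted p = 0.000251), Cxcl10, 4.54 (adjusted p = 0.00159), and Ifit1, 4.30 (adjusted p = 0.00793). In Ifnar1-/- cells 6 rose and 2 fell with LPS (median 1.52). With LPS+zVAD 9 of the 12 rose there (median 4.73). Of the 12 genes, 2 were well above background on all 32 arrays, and the gene seen least often was so on 16. Changes from a level near background are uncertain, so the medians of the genotypes are not set against each other.

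The genes whose 16 group means were most like those of Ifnb1, among 16033 other genes, were Larp1b (Pearson r = 0.968), Ccl4, a chemokine (0.938), and Rbm27 (0.932). For Jak2 they were Hdc, which makes histamine (0.989), Olfr319 (0.983) and Slco3a1 (0.981). Those of Ifngr1 included Avpi1 (0.959) and Hacl1 (0.957), and those of Tyk2 were Rnaseh1 (0.959), Znhit1 (0.951) and Dnajb11 (0.951). For Ifngr2 they were 2610034B18Rik (0.937), Uspl1 (0.924) and Gm5785 (0.920), for Jak1 Clcn5 (0.939), Gpa33 (0.933) and C330021F23Rik (0.932), and for Ifnar2 Hnrnph3 (0.909), Actr10 (0.879) and Nol12 (0.854). The Ifnar1 probes had Marcks (0.945), Slc9a8 (0.943) and Cbr2 (0.935) at 1536, Tcof1 (0.959), Cbr2 (0.953) and Sfswap (0.952) at 2880, and 1500015A07Rik (0.914), BC055308 (0.890) and Mif4gd (0.871) at 6918. These are descriptions over the same arrays, and 2 of the 16 group means of Ifnb1 are of arrays not above background. Among the members, the Ifnar1 probes at 1536 and 2880 had an r of 0.90 over the 8 WT and 0.94 over the 8 Ifnar1-/- group means, and the probes at 2880 and 6918 one of 0.44 over the WT and 0.85 over the Ifnar1-/- group means. Ifngr1 and Jak2 had an r of -0.89 over the WT and -0.79 over the Ifnar1-/- group means.

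Ifnar1 sits in a cluster of receptor genes on chromosome 16, and 19 tested probes of 12 genes lie within 250 kb of its probes. In untreated cells 3 of the 19 differed between the genotypes, all of them Ifnar1 probes, and the lowest adjusted p among the other 16 was 0.105. Over the 8 treatments, Il10rb, a chain of the interleukin 10 receptor, was called in 0. Dnajc28 was higher in the knockout in 6, and the probes of Gart, an enzyme of purine synthesis, in 7 and 5. Tmem50b was lower in 3, A930006K02Rik in 2 and 1 of the 3 probes of Son in 5. The last of the Son probes were called in 1, higher, and in 0, and the probes of Cryzl1 were higher in 2 and 1. Donson and Gm10785 were called in 0. Of all tested probes, 8.73% were called in untreated cells, 8.32% with zVAD, 28.6% with LPS and 44.1% with IFNβ. The shares were 37.9% with LPS+zVAD, 43.6% with IFNβ+zVAD, 40.1% with LPS+zVAD+Nec-1 and 41.8% with IFNβ+zVAD+Nec-1. The counts of the neighbours are to be read beside these shares. Slide and genotype cannot be told apart here either.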

How the data were processed

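RNA of 32 mouse BMDM samples was labelled with 1 dye and hybridized to 1-colour Agilent arrays. The authors' Feature Extraction 11.5.1.1 software made the deposited intensity values (background-subtracted and detrended processed signal, with a surrogate for very dim spots), and the probe coordinates in the file headers are mm9. The authors also deposited a table of normalized log2 values, used only as an alternative. Groups came from the sample labels.

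Outlier spots (130 to 499 per array) were left out, replicate spots averaged, and log2 values quantile-normalized. Of 55681 probes, 33140 had a gene symbol and of these 21459 passed the filter, which asks for a signal well above background in 50% or more of the arrays. No probe was saturated, and the number of arrays limits the precision. With limma 3.58.1 (R 4.3.3), 16 group means were fitted (16 residual and 2.60 prior degrees of freedom), the Benjamini-Hochberg adjustment ran over all tested probes of a comparison, and probes with an adjusted p under 0.05 were called. SE is limma's moderated standard error, and intervals are 95%. The fit was tested on simulated arrays.

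The replicate number marks a shared slide. Deviations from the group means of same-numbered samples correlated at 0.316 to 0.662 over 28 pairs of WT groups and at 0.168 to 0.576 over 28 pairs of Ifnar1-/- groups, so the slide was also fitted as a block. Across genotypes, where the samples lay on different slides, the 64 correlations ran from -0.015 to 0.322, with a median of 0.157. The other alternatives were the slide as a random block (correlation 0.399), a 75th percentile shift, normexp background correction (offset 50), both filters on dim probes, a trended and robust prior, 1 probe a gene, only the arrays compared, a fit that leaves out both Ifnar1-/- LPS+zVAD+Nec-1 arrays, the authors' table, and leaving out each array.

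The members and the gene lists were chosen with earlier results of these data known. All member probes are named. From each list up to 4 genes are named, those with the largest called change in WT cells with LPS and then with IFNβ, each gene by its brightest probe. Genes like a member are the 3 with the highest Pearson correlation over the group means, and neighbours lie within 250 kb of an Ifnar1 probe. A gene like Ifngr1 and part of the results for the signal transducers are not reported here. A probe not above background on both arrays of a group has only a bound. The brighter mean was set against the mean of the lowest signal well above background on each array of the dimmer group, or the probe's own where higher. An adjusted p printed with a bound is that of the fitted difference. Promoter sequences are from RefSeq (GRCm38.p6), and their coordinates are not mixed with mm9. The exon or UTR in which each probe lies was not analysed here.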

Additional observations from a re-analysis of the deposited data

Results flagged for a closer look

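The results here drew attention because the change with treatment, against untreated cells of the same genotype, differed between Ifnar1-/- and WT cells by a test of the difference itself (limma, Benjamini-Hochberg adjustment over all tested probes). Values are the knockout change minus the WT change in log2. Each group holds 2 arrays, too few to look for single arrays that stand apart, and slides do not enter these differences in the way they enter a direct comparison of the genotypes.

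Jak2 differed in 4 treatments, by -2.63 (adjusted p = 0.00137) with IFNβ, -2.25 (adjusted p = 0.00458) with IFNβ+zVAD, -2.27 (adjusted p = 0.00452) with IFNβ+zVAD+Nec-1 and -1.66 (adjusted p = 0.0307) with LPS+zVAD+Nec-1. The last rests on the Ifnar1-/- pair that stood apart and was -0.70 (adjusted p = 0.12) without its replicate 2. Tyk2 differed by -1.57 (adjusted p = 0.011) with IFNβ and by -1.61 (adjusted p = 0.00985) with IFNβ+zVAD+Nec-1. Ifnb1 itself differed by -4.64 (adjusted p = 0.0306) with IFNβ, where its signal in knockout cells was below background both with and without IFNβ, so that the size is not exact, and this call was lost without 7 of the 8 arrays.

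The Ifnar1 probe at 1536 differed by -1.33 (adjusted p = 0.0207) with LPS and by -1.32 (adjusted p = 0.00971) with LPS+zVAD+Nec-1. The probe at 2880 differed by -1.32 (adjusted p = 0.00254) with LPS, by -1.90 (adjusted p = 4.28e-05) with LPS+zVAD+Nec-1 and by -0.80 (adjusted p = 0.0285) with IFNβ+zVAD+Nec-1. These probes read the transcript of the gene that is disrupted in the knockout cells. Ifngr2 was the 1 member called with a higher change in the knockout in the fit without the slide, by 1.18 (adjusted p = 0.00829) with LPS+zVAD, and under the 75th percentile shift this was 0.97 (adjusted p = 0.127). Fitting the slide as a block gave 9 differences called higher in the knockout, 4 of them of Ifngr1, with adjusted p-values of 0.00132 to 0.00408.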

How the results depend on the processing

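Of 112 called values of single probes, 54 passed the test under every alternative that could be run. None reversed under any alternative, 46 were lost in at least 1 fit without 1 array, and 48 were lost in at least 1 other alternative. A fit of only the arrays compared, which has fewer samples, lost 39, the 75th percentile shift 17, the authors' normalized values 15, no filter on dim probes 13, the filter of 1 group 7, normexp 6, the random block and the trended and robust prior 2 each, and a fit that leaves out both Ifnar1-/- LPS+zVAD+Nec-1 arrays 1. That last fit gave a count only for the WT treatments, 35 in place of 36, since the other families hold comparisons of the pair.

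With the slide as a block, the count of called pairs went from 8 to 14 for Ifnar1-/- treatments and from 13 to 23 for the difference between the genotypes' responses, and with the slide as a random block to 13 and 25. The block gave 38 in place of 36 for WT treatments, 25 in place of 17 for zVAD or Nec-1 added within a genotype and 39 in place of 38 for Ifnar1-/- against WT. No call was lost under the fixed block. With 1 probe a gene, which removes Ifnar1 probes, the added agents gave 9 and Ifnar1-/- against WT 22. With only the arrays compared the added agents gave 9. The cause of the other moves was not tested. Without 1 array the counts ran from 26 to 39 for WT treatments, 4 to 10 for Ifnar1-/- treatments (4 without either untreated knockout array), 6 to 18 for the genotype difference in response (6 without Ifnar1-/- untreated replicate 2), 13 to 20 for the added agents and 35 to 42 for Ifnar1-/- against WT. Signal over background limits Ifnb1, which was well above background on 26 of 32 arrays, more than the other probes, which were so on 31 or 32.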
